A study of Homo sapiens with 12 samples.

Results

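The end of the short arm of chromosome 2 was examined in 2 breast cancer cell lines from which CD44 had been deleted. Its members are the rows of the count table on chromosome 2 whose first exon position lies below 26600000 in GRCh38, which gave 404 of 58381 rows. They start between positions 38814 and 26581202. The region was chosen by the measured ratios of CD44 KO to CD44 WT in each line, in which its genes stood low, so the changes of its members and the number of them called are given here as a description, with no p-value for the change of a member within a line, and cannot count as evidence that the region fell. Differences between the lines are built from the same ratios, so the adjusted p-values given for them are descriptive too.

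Hs578T and MDA-MB-231 are human triple negative breast cancer lines, both mesenchymal in morphology. Hs578T came from a primary tumor and MDA-MB-231 from a metastatic site. CD44 is the cell surface receptor for hyaluronan, and the study asked which genes depend on it. Polyadenylated RNA was sequenced in 12 libraries, 3 in each of 4 groups, named Hs578T CD44 WT, Hs578T CD44 KO, MDA-MB-231 CD44 WT and MDA-MB-231 CD44 KO. Cells of all groups carried Cas9 under puromycin selection. CD44 KO cells received guides to exons 1 and 5 of CD44 and were sorted as CD29+/CD44- cells. CD44 WT cells received the transfection reagent alone and were sorted as CD29+/CD44+ cells, so no group carries a guide against another target. Each group is an expanded sorted population, not a clone, and all were starved in low serum before RNA was taken. The labels do not say that the triplicates came from separate cultures, so their spread may be technical.

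The libraries held 10257586 to 19725543 counts. CD44 itself had a mean of 507 CPM (counts per 1e6 counts of the library, on the TMM scale of edgeR) in Hs578T CD44 WT and 27.3 in CD44 KO, against 361.5 and 34.2 in MDA-MB-231. VIM lay between 3730 and 7262 CPM and PGR had no count. The keratin genes of epithelial cells were also expressed, with group means of 307 to 571 CPM for KRT8 and 374 to 631 CPM for KRT18. ITGB1, which encodes CD29, had group means of 588 to 900 CPM. PECAM1, an endothelial gene, had means of 11.6 and 13.9 CPM in Hs578T CD44 WT and CD44 KO, and 2.02 and 2.59 CPM in those of MDA-MB-231. The receptor transcript ERBB2 lay between 57.4 and 101 CPM. PTPRC, a leukocyte gene, had a mean of 3.78 CPM in Hs578T CD44 KO and 0.369 CPM in CD44 WT, while CDH1 stayed below 1 CPM in every library and EPCAM, an epithelial gene, had means of 16.8 to 17.6 CPM in MDA-MB-231 and 0.0552 to 0.0556 CPM in Hs578T. The part of PTPRC in the results was not tested. The library MDA-MB-231 CD44 WT 1 stands apart: of 11227 genes with a mean of at least 5 CPM, 17.9% lay more than 0.5 (log2) from the other libraries of its group, against 1.99% to 8.97% in the other 11 libraries. It differed in this way for 10 of 71 members of that level, and for several results below the value without it is also given.

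A set of genes fixed by position differs from a pathway, since genes that lie side by side on a human chromosome rarely share a task. The end of the short arm of chromosome 2 is known for MYCN and its neighbours DDX1 and NBAS, for the enzymes of nucleotide and polyamine supply RRM2 and ODC1, and for the DNA methyltransferase DNMT3A. It also holds housekeeping genes of splicing, ribosomes, membrane traffic and fatty acid oxidation.

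The sequences that made the groups are the 2 CD44 guides, shown 5′ to 3′ with the adjoining PAM in capitals. Both match the minus strand of chromosome 11 in GRCh38, the first across the boundary of exon 1 and the intron behind it, which lies at position 35139370, and the second within exon 5.
exon 1 guide, chr11:35139360-35139379: ggcactcaccgatctgcgccAGG
exon 5 guide, chr11:35190030-35190049: gtctgtgctgtcggtgatccAGG
On chromosome 2 neither guide had a site with a PAM of NGG and 2 mismatches or fewer. The exon 1 guide had 2 sites with 4 mismatches, none of them in the region. The exon 5 guide had 1 site with 3 mismatches, outside the region, and 9 with 4 mismatches, 1 of which lies in the region at chr2:914758-914777. A match of letters is a description and does not show that a site was cut.

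Promoters are shown for 4 members that stand for the range of behaviour described below. RNF144A lay far below its neighbours in both lines, and DDX1 was called lower in both. HPCAL1 was the highest of the well expressed members in Hs578T, and the change of DNMT3A differed between the lines. Each promoter covers 250 bases before to 50 after a start in RefSeq (GRCh38.p14), read 5′ to 3′ on the strand of the gene, with CG dinucleotides in capitals. RefSeq gave 2 promoters for RNF144A, 1 for DDX1, 3 for HPCAL1 and 6 for DNMT3A. The one nearest to the 5′ end of the gene's row in the count table was taken. Which start these cells use was not tested.
RNF144A promoter, chr2:6917162-6917461, plus strand: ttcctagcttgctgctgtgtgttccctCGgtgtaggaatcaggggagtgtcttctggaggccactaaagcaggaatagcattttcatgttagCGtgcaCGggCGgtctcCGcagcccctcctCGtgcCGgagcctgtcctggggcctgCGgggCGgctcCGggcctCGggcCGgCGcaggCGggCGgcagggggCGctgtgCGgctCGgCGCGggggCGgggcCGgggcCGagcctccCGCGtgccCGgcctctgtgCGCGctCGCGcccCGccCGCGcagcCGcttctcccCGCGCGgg
DDX1 promoter, chr2:15591618-15591917, plus strand: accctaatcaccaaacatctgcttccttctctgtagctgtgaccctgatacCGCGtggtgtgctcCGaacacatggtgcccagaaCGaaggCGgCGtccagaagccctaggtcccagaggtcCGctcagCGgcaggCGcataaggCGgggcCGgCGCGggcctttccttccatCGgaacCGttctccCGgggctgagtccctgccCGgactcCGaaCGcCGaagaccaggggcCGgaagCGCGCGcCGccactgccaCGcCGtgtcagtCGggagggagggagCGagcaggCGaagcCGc
HPCAL1 promoter, chr2:10302654-10302953, plus strand: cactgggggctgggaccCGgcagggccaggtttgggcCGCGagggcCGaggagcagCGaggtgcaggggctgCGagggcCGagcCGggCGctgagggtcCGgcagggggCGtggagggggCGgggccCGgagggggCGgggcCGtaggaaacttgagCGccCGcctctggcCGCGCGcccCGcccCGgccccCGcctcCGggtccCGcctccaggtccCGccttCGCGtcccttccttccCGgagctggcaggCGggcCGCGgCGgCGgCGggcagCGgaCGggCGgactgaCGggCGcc
DNMT3A promoter, chr2:25342541-25342840, minus strand: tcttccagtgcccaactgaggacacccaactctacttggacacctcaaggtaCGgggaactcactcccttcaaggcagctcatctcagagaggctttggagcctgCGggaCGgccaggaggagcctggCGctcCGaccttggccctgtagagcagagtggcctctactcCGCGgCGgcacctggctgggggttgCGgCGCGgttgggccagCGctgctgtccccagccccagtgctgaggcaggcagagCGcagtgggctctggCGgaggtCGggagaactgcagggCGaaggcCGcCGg
These windows hold 37, 31, 40 and 18 CG dinucleotides in the order shown. Over the 79 tested members with a RefSeq promoter the median was 31, over 11294 tested genes it was 26, and over all 35116 RefSeq promoters it was 14. The letters TATAAA, on either strand, stood in 3.8% of the tested members' windows and 5.77% of those of all tested genes, and CACGTG, the E-box bound by MYC, in 3.8% and 9.89%. The 4 promoters shown hold neither.

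Of the 404 members, 110 are protein coding, 174 are long noncoding RNAs and 50 are processed pseudogenes. No read was counted for 179 members, and 125 more were counted but stayed under the filter of 1 CPM in at least 2 libraries or under 300 nt of exon. The 100 members that passed are 85 protein coding genes, 13 long noncoding RNAs and 2 genes missing from the later annotation, and they hold 99.8% to 99.9% of the members' counts. MYCN, the transcription factor gene amplified in neuroblastoma, never exceeded 1 count in a library, and APOB, the apolipoprotein of liver and gut, never exceeded 15.

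Summed over all members, the region took a smaller part of the RNA of both lines once CD44 was deleted. As the libraries come from populations of cells, fewer cells that express a gene and less of its RNA per cell cannot be told apart. In Hs578T it held 0.887%, 0.867% and 0.870% of all counts in the CD44 WT libraries and 0.700%, 0.694% and 0.691% in the CD44 KO libraries. In MDA-MB-231 it held 0.766%, 0.804% and 0.817% in CD44 WT and 0.616%, 0.604% and 0.604% in CD44 KO. The groups did not overlap in either line. The rest of chromosome 2 behaved differently in the lines: it held 7.22% to 7.25% in Hs578T CD44 WT and 6.004% to 6.38% in CD44 KO, but 5.66% to 5.98% and 5.78% to 5.96% in MDA-MB-231, where the groups overlapped.

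The median log2 fold change of the 100 tested members, CD44 KO over CD44 WT, was -0.38 in Hs578T, or 76.6% of the CD44 WT level, and -0.41 in MDA-MB-231, or 75.2%. Over all 15836 genes tested the medians were -0.00 and -0.01. The fitted change was below 0 for 91 members in Hs578T and 88 in MDA-MB-231, where 50.2% and 51.2% of all genes tested lay below 0. In single libraries the median of the members against the CD44 WT mean was -0.34, -0.37 and -0.37 in the Hs578T CD44 KO libraries and -0.38, -0.40 and -0.37 in those of MDA-MB-231. Each CD44 WT library was set against the mean of the other CD44 WT libraries of its line. These values lay between -0.07 and 0.05 in Hs578T and at 0.01 in each library of MDA-MB-231. Members with 3 counts or fewer in both groups of a line, 4 in Hs578T and 6 in MDA-MB-231, carry no information on a change, and without them the medians were again -0.38 and -0.41.

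At an adjusted p of at most 0.01 (edgeR quasi-likelihood test over all genes) 22 members were lower and 1 higher in Hs578T CD44 KO, where 3.86% of all genes tested were called lower and 3.64% higher. In MDA-MB-231 27 members were lower and none higher, against 2.65% and 1.97% of all genes. An unadjusted p under 0.05 (edgeR), in either direction, was met by 65 members for Hs578T and 55 for MDA-MB-231. These 2 counts stand without a share of all genes, so they are not read as a sign of a decrease. DESeq2 called 1 member higher in MDA-MB-231. All CD44 KO libraries lay below all CD44 WT libraries for 60 members in Hs578T and 54 in MDA-MB-231, with 18.6% and 13.7% of all genes doing so. These calls follow from the choice of the region and are read no further. The count for Hs578T was sensitive to single libraries: it was 12, 10 and 9 without CD44 KO 1, 2 or 3, 10 and 13 without CD44 WT 1 or 2, and 36 without MDA-MB-231 CD44 WT 1, which shares the estimate of spread. That for MDA-MB-231 was 17, 13 and 14 without its CD44 KO 1, 2 or 3, 18 without the unnumbered CD44 WT library, and 29 without CD44 WT 1.

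The medians of the lines were close, but the values along the chromosome were not alike. In Hs578T the decrease went on past the edge of the region. The 42 tested genes from SLC35F6 to CLIP4, just past the edge, had a median of -0.38 and the 117 from YPEL5 onward, up to a start of 58460292, a median of -0.32. Blocks farther along had medians of -0.26, -0.21, -0.11 and -0.20. All 1005 tested genes of chromosome 2 outside the region had a median of -0.22, which was the lowest of 23 chromosomes, followed by chromosome 13 at -0.20. In MDA-MB-231 the same 1005 genes had a median of 0, and 121 of them were called lower in Hs578T but 14 in MDA-MB-231.

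**Figure D1:**
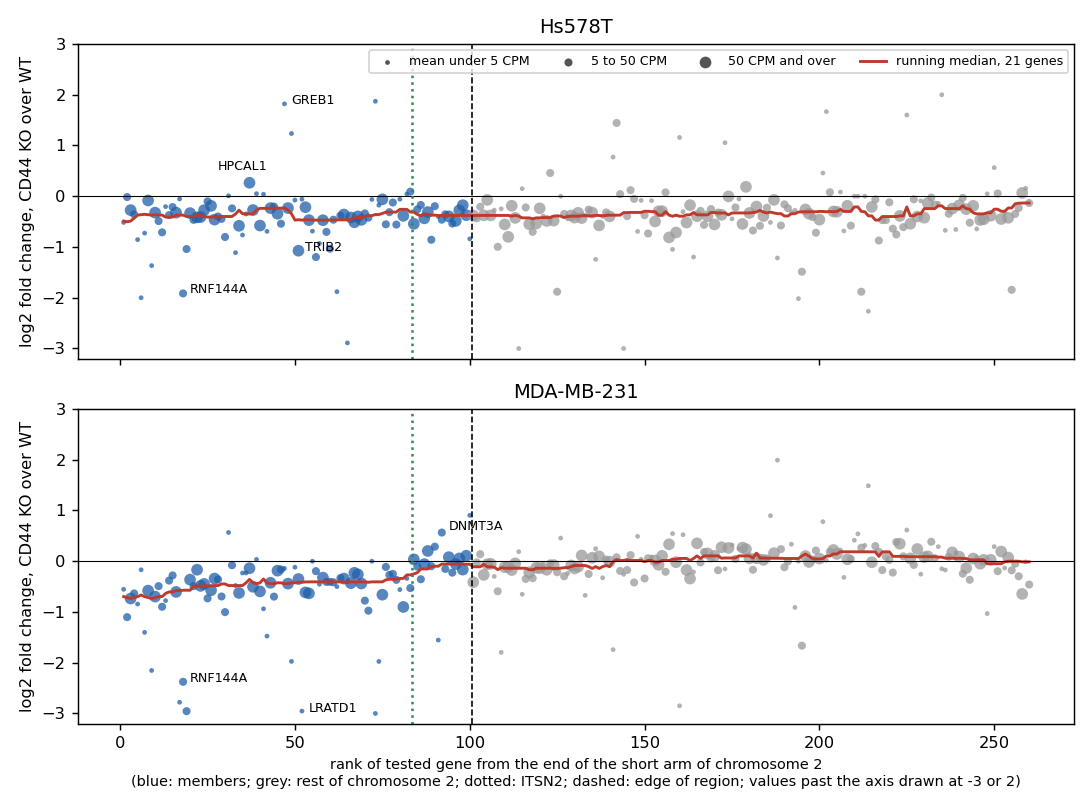
Fitted log2 fold change, CD44 KO over CD44 WT, of the first 260 tested genes of chromosome 2 in order from the end of the short arm, with larger points for higher mean CPM and a red running median of 21 genes. In Hs578T the running median stays below 0 past the edge of the region (dashed), while in MDA-MB-231 it starts near its lowest value and comes close to 0 just past ITSN2 (dotted), 17 tested genes before the edge.

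In MDA-MB-231 the values came close to 0 inside the region, but the return was not clean. The 42 tested genes just past the edge, from SLC35F6 to CLIP4, had a median of -0.12 in this line, and 33 of them lay below 0. For the 117 genes after them the median was 0.06. SF3B6, the last gene before the split that was called lower, starts at position 24067584, FAM228B and TP53I3, the tested genes after it, at 24076526 and 24077433, and ITSN2, the next, at 24202864. The 83 tested members before ITSN2 had a median of -0.48 in MDA-MB-231, or 71.7% of CD44 WT, and 79 of them lay below 0. The 17 from ITSN2 to FAM166C had a median of -0.06, or 96.1%, and 9 of them lay below 0. In Hs578T the same 83 and 17 members had medians of -0.38 and -0.40, and all 17 lay below 0, though FAM166C had 3 counts or fewer in both groups. The position of this split was chosen after the values were seen. Of the 27 members called lower in MDA-MB-231, 26 lie before ITSN2, and the exception was EFR3B, a weakly expressed gene with 1.54, 1.38 and 1.25 CPM in CD44 WT and 0.508, 0.424 and 0.494 CPM in CD44 KO.

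**Figure D2:**
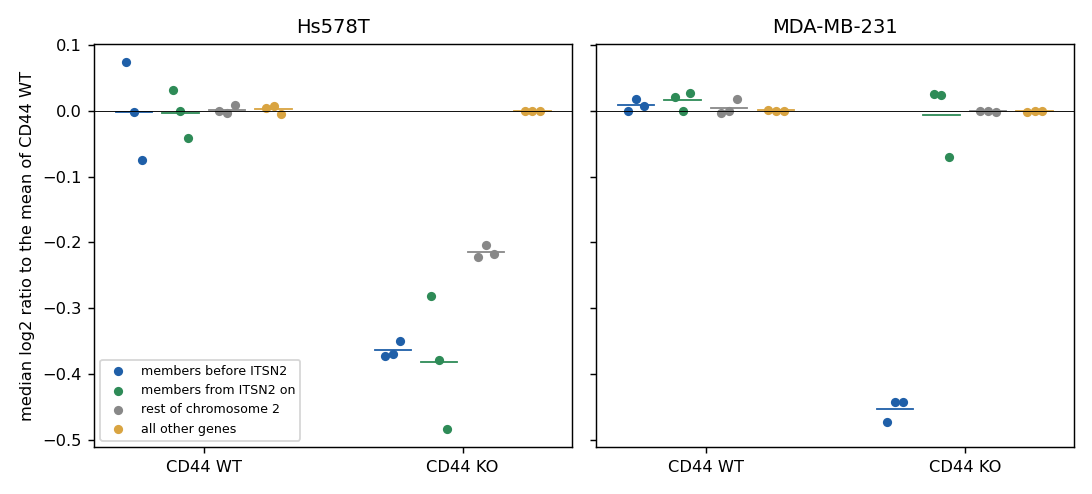
Median log2 ratio of each library to the mean of the CD44 WT libraries of its line, where a CD44 WT library is left out of its own reference. Shown are members before ITSN2, members from ITSN2 on, the rest of chromosome 2 and all other genes tested. Points are libraries and lines are means of 3. In MDA-MB-231 CD44 KO the members before ITSN2 lie between -0.47 and -0.44 while those from ITSN2 on lie between -0.07 and 0.03, whereas in Hs578T CD44 KO both lie below -0.28.

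The 3 CD44 KO libraries of MDA-MB-231 were alike in this. The split was placed from the values of these same libraries, so the likeness is a description and no support for the position. Members before ITSN2 had medians of -0.47, -0.44 and -0.44 in the CD44 KO libraries, and those from ITSN2 on had 0.03, 0.02 and -0.07. With the library that stands apart, MDA-MB-231 CD44 WT 1, left out, the medians became -0.46 and -0.08. Leaving out any other library of this line kept the first between -0.51 and -0.44 and the second between -0.05 and 0.03.

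Within the stretch before ITSN2 the decrease in MDA-MB-231 was larger nearer to the end of the chromosome. The 16 tested genes from FAM110C to RPS7 had a median of -0.67 and all were below 0. The 14 from SOX11 to GRHL1 had -0.53, the 22 from there to LRATD1 had -0.39, the 13 from NBAS to MATN3 had -0.41 and the 18 from LAPTM4A to TP53I3 had -0.44. The first block held members of very different tasks. ACP1, a low molecular weight phosphatase, had 151, 138 and 145 CPM in CD44 WT and 93.5, 88.1 and 78.7 CPM in CD44 KO. RPS7, a protein of the small ribosomal subunit, had 951, 742 and 751 CPM in CD44 WT and 587, 515 and 504 CPM in CD44 KO, a change of -0.61 ± 0.10 (SE) that was -0.48 without CD44 WT 1. PXDN, a peroxidase that crosslinks collagen IV in basement membranes, had 461, 639 and 642 CPM and then 379, 396 and 391 CPM. Its change was -0.58 ± 0.11 (SE), and -0.72 without CD44 WT 1. In each of these genes the MDA-MB-231 groups did not overlap.

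In Hs578T the blocks showed no such gradient, with medians of -0.36, -0.41, -0.24, -0.69 and -0.33 in the same order and -0.40 from ITSN2 on. The low value belongs to the block from NBAS to MATN3, where 4 of the 13 genes had a mean under 5 CPM, and over its 9 genes of at least 5 CPM it was -0.47. PXDN changed by -0.08 ± 0.11 (SE) in Hs578T, with 1062, 1042 and 956 CPM in CD44 WT and 929, 967 and 991 CPM in CD44 KO, which overlap.

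The evenness of the decrease depended on the level of expression. Among 36 members with a mean of at least 50 CPM the interquartile range of the log2 changes was 0.19 in Hs578T, against 0.25 in 4776 other genes of that level, and 0.42 in MDA-MB-231, against 0.28. Over the 28 such members before ITSN2 the range in MDA-MB-231 was 0.27, and over the 8 from ITSN2 on it was 0.14. Among the 29 members under 5 CPM the ranges were 0.79 and 1.31 in the same order, against 0.86 and 0.71 in 4580 other genes of that level. Of 53 members with a mean of at least 20 CPM, 52 lay below 0 in Hs578T and 46 lay within 0.25 of their median of -0.37. In MDA-MB-231 48 lay below 0 and 33 lay within 0.25 of a median of -0.37, and all 42 before ITSN2 but 6 of 11 from ITSN2 on lay below 0.

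**Figure D3:**
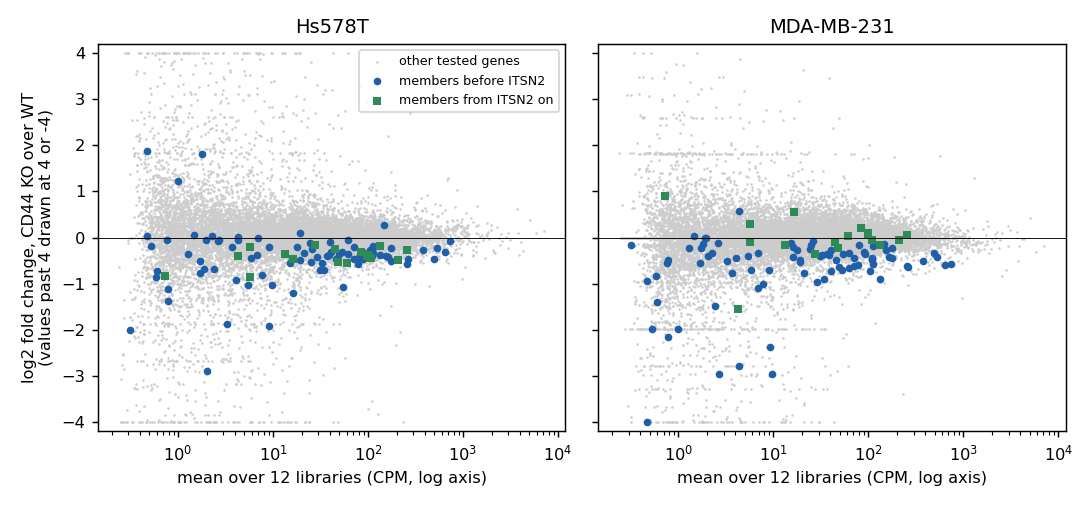
Fitted log2 fold change, CD44 KO over CD44 WT, against the mean level over 12 libraries (log axis) for members before ITSN2 (blue circles), members from ITSN2 on (green squares) and all other tested genes (grey). From 50 CPM up the members form a narrow band below 0 in Hs578T, whereas the green squares of that level scatter around 0 in MDA-MB-231.

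Among members of at least 5 CPM, RNF144A was the one that fell far more than its neighbours in both lines. It encodes an E3 ubiquitin ligase that targets a DNA damage kinase, and starts at position 6917392. In Hs578T it had 13.4, 13.98 and 11.3 CPM in CD44 WT and 3.61, 3.88 and 2.64 CPM in CD44 KO, and in MDA-MB-231 15.1, 17.8 and 18.7 CPM and then 3.30, 3.55 and 2.96 CPM. The lowest CD44 WT library was well above the highest CD44 KO library in each line. The changes were -1.92 ± 0.17 and -2.38 ± 0.17 (log2, SE), while the 10 tested genes around it had medians of -0.35 and -0.49. The difference between the lines was 0.46 ± 0.25 (SE), with an adjusted p of 0.27 (edgeR). No other member of at least 5 CPM lay 1 or more below its neighbours in both lines.

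LRATD1, a gene linked to cell shape and motility, was the other member far below its neighbours, and only MDA-MB-231 expressed it at a level that could be compared. It had 8.74, 10.4 and 9.53 CPM in CD44 WT and 1.19, 1.48 and 0.889 CPM in CD44 KO, a change of -2.95 ± 0.28 (SE) where its neighbours had a median of -0.40. In Hs578T only 2 fragments were counted in CD44 WT and 2 in CD44 KO.

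Several members lay far from the rest but outside these limits, and they are named here after their values were seen. TRIB2, a pseudokinase, had 99.4, 89.2 and 78.3 CPM in Hs578T CD44 WT and 34.6, 49.1 and 43.0 CPM in CD44 KO, a change of -1.07 ± 0.17 (SE) against -0.35 ± 0.18 in MDA-MB-231. ID2, an inhibitor of basic helix-loop-helix transcription factors, had 32.9, 24.7 and 19.2 CPM and then 12.1, 9.99 and 15.5 CPM in Hs578T, a change of -1.04 ± 0.21 (SE). MATN3, a matrix protein of cartilage, had 1.39, 1.56 and 0.508 CPM and then 0.160, 0.123 and 0.171 CPM in Hs578T, from 45 counts over CD44 WT and 6 over CD44 KO. The Hs578T groups did not overlap in any of them.

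GREB1 was the single member called higher in either line, and it was no longer called without Hs578T CD44 KO 2, CD44 WT 1 or CD44 WT 2. It is known as an estrogen-responsive gene, and it had 0.694, 1.23 and 1.86 CPM in Hs578T CD44 WT and 4.33, 5.06 and 3.75 CPM in CD44 KO, a change of 1.82 ± 0.34 (SE). In MDA-MB-231 it had 1.29, 0.811 and 0.445 CPM and then 0.762, 0.953 and 0.494 CPM, with overlapping groups. ESR1, which encodes the estrogen receptor, had means of 0.771 CPM in Hs578T CD44 WT and 0.928 CPM in CD44 KO, and its ranges overlapped.

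No member with at least 5 CPM in both lines had a change at or above 0 in both. In Hs578T the highest change among members with 5 CPM or more in that line was that of HPCAL1, a neuronal calcium sensor, with 81.6, 81.7 and 86.2 CPM in CD44 WT and 108, 99.5 and 92.4 CPM in CD44 KO. Every CD44 KO library was above every CD44 WT library, and the change was 0.27 ± 0.12 (SE). In MDA-MB-231 HPCAL1 had 236, 225 and 183 CPM and then 167, 192 and 227 CPM, which overlap, with a change of -0.14 ± 0.12 (SE). TP53I3, an oxidoreductase induced by p53, had 18.1, 18.3 and 25.7 CPM and then 24.1, 20.8 and 21.2 CPM in Hs578T. Its groups overlap, and its change of 0.09 ± 0.15 (SE) became 0.27 without CD44 WT 3. The long noncoding RNA ENSG00000260077, SOX11, a transcription factor of neural progenitors, and KLHL29 followed, at 0.01 ± 0.22, -0.05 ± 0.22 and -0.06 ± 0.09. In MDA-MB-231 ENSG00000260077 had means of 0.759 CPM in CD44 WT and 1.16 CPM in CD44 KO and a change of 0.57 ± 0.37 (SE).

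In MDA-MB-231 the 5 highest changes at that level all belonged to members from ITSN2 on. DNMT3A, a de novo DNA methyltransferase, had 16.4, 14.6 and 16.2 CPM in CD44 WT and 24.5, 21.3 and 24.1 CPM in CD44 KO, and the change was 0.56 ± 0.13 (SE). Its groups did not overlap. DNAJC27, a small GTPase with a J domain, ADCY3, an adenylate cyclase, SELENOI, an enzyme of phospholipid synthesis, and ASXL2, a chromatin protein, had changes of 0.29 ± 0.21, 0.20 ± 0.11, 0.11 ± 0.13 and 0.08 ± 0.19 (SE). ASXL2 had 62.2, 127 and 129.99 CPM in CD44 WT, of which the first is the library that stands apart, and 118, 112 and 107 CPM in CD44 KO. Without that library the changes of ASXL2 and SELENOI were -0.19 and -0.04, that of ADCY3 was 0.23 and that of DNMT3A 0.59.

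ITSN2, a scaffold of endocytosis, is the first gene after the split that was chosen once the values were seen. In Hs578T it had 90.5, 80.5 and 78.7 CPM in CD44 WT and 57.2, 63.9 and 50.1 CPM in CD44 KO, with no overlap and a change of -0.54 ± 0.17 (SE). In MDA-MB-231 it had 33.3, 55.9 and 63.3 CPM and then 55.3, 54.6 and 46.3 CPM, with overlap and a change of 0.04 ± 0.17 (SE). Here too the low value is that of CD44 WT 1, without which the change was -0.19 ± 0.11 (SE). The difference between the lines was -0.58 ± 0.24 (SE), with an adjusted p of 0.15 (edgeR), and it was -0.35 without MDA-MB-231 CD44 WT 1.

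**Figure D4:**
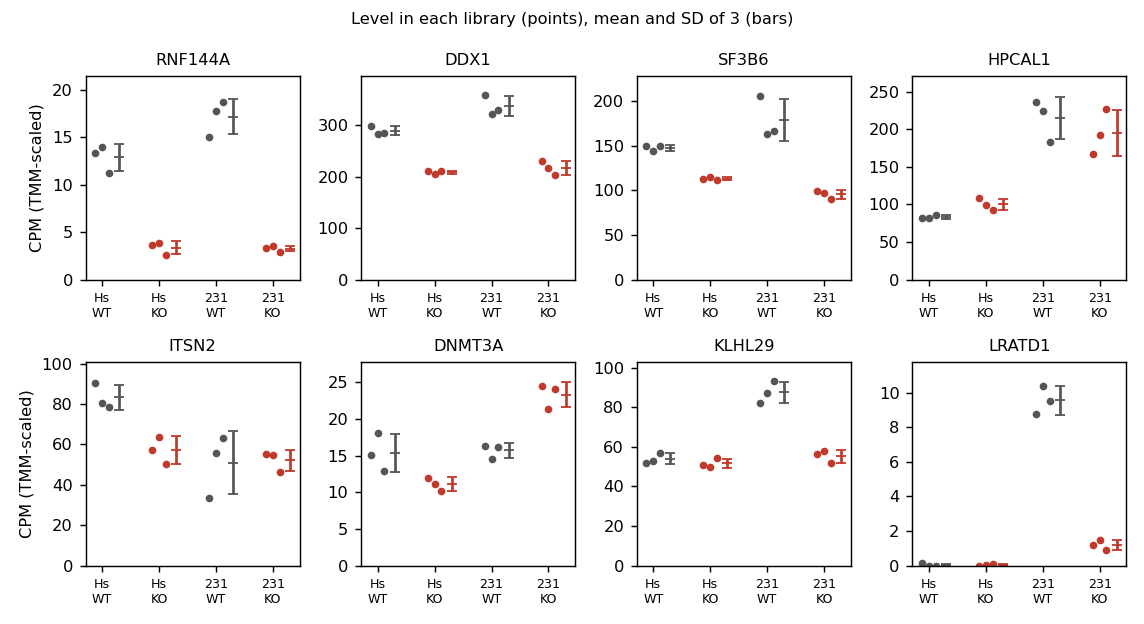
Level in CPM of 8 members in each library (points) with the mean and SD of 3 (bars) for CD44 WT (grey) and CD44 KO (red) of Hs578T (Hs) and MDA-MB-231 (231). RNF144A falls in both lines, DDX1 and SF3B6 are lower in both, and DNMT3A has its CD44 KO points below those of CD44 WT in Hs578T and above them in MDA-MB-231.

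Lower in both lines were 10 members, where 0.272% of all genes were called lower in both. They are MYT1L, ADI1, RNF144A, ITGB1BP1, GRHL1, RRM2, NOL10, DDX1, LAPTM4A and SF3B6, and all lie before ITSN2. MYT1L was weakly expressed, with a mean of 0.789 CPM over all libraries, and changed by -1.37 ± 0.32 in Hs578T and -2.15 ± 0.48 in MDA-MB-231 (SE). DDX1, an RNA helicase of tRNA ligation and RNA repair, had 298, 283 and 284 CPM in Hs578T CD44 WT and 210.2, 204 and 209.7 CPM in CD44 KO, and 358, 321 and 328 CPM and then 229, 217 and 203 CPM in MDA-MB-231. Its changes of -0.47 ± 0.08 and -0.63 ± 0.08 (SE) lie 0.11 above and 0.25 below those of its neighbours. RRM2, the small subunit of ribonucleotide reductase, had 191, 189 and 250.01 CPM and then 149, 128 and 145 CPM in Hs578T, and 456, 372 and 398 CPM and then 290.5, 265 and 239 CPM in MDA-MB-231. ENSG00000284681.2 overlaps RRM2 on the same strand. Fragments that fall on exons of both were left out of the counts, so the level of RRM2 may be too low. SF3B6, a subunit of the splicing factor SF3b, is the last of the 10 before ITSN2, and changed by -0.39 ± 0.09 in Hs578T and -0.90 ± 0.09 in MDA-MB-231. Without MDA-MB-231 CD44 WT 1 the latter was -0.79. All CD44 KO libraries lay below all CD44 WT libraries in both lines for 38 members, where 2.95% of all genes did so.

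The members were also grouped by role. The counts of called genes in each list come from the ratios that chose the region, so they describe the lists and test nothing, and they stand beside 22 of all 100 tested members in Hs578T and 27 in MDA-MB-231, and 3.86% and 2.65% of all genes tested. All 8 listed genes of RNA processing and the ribosome were tested, and 3 were lower in Hs578T and 5 in MDA-MB-231, with median changes of -0.39 and -0.52. Of 6 genes of DNA replication, repair and chromosome segregation 5 were tested, and 4 were lower in Hs578T and 1 in MDA-MB-231, with medians of -0.55 and -0.32. In that list GEN1, a Holliday junction resolvase, and SMC6, of a chromosome maintenance complex, changed by -0.70 and -0.47 in Hs578T and by -0.41 and -0.32 in MDA-MB-231. Of 10 tested transcription and chromatin genes, 4 were lower in Hs578T and 2 in MDA-MB-231, with medians of -0.50 and -0.33. Among them GRHL1, an epithelial transcription factor, changed by -0.80 ± 0.14 and -1.003 ± 0.19 (SE).

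Of 12 membrane traffic genes 2 were lower in Hs578T and 5 in MDA-MB-231, with a median of -0.39 in each. LAPTM4A, a lysosomal membrane protein, had nearly equal changes of -0.42 ± 0.08 and -0.43 ± 0.08 (SE). Of 13 tested genes of adhesion, shedding and signalling 5 were lower and 1 was higher in Hs578T, and 4 were lower in MDA-MB-231, with medians of -0.34 and -0.35. This list holds genes that act beside CD44 at the cell surface. ADAM17, a protease that sheds surface proteins, had 158, 164 and 157 CPM and then 133, 150.1 and 138 CPM in Hs578T, and 77.0, 94.2 and 105 CPM and then 52.9, 68.1 and 64.6 CPM in MDA-MB-231, with no overlap in either line. SDC1, the heparan sulfate proteoglycan syndecan 1, changed by -0.51 ± 0.08 and -0.23 ± 0.08 (SE), and ITGB1BP1, which binds the integrin beta 1 tail, by -0.41 ± 0.09 and -0.49 ± 0.09. Of 14 tested genes of metabolism 2 were lower in Hs578T and 5 in MDA-MB-231, with medians of -0.28 and -0.50, among them ADI1, of methionine salvage, at -0.71 ± 0.12 and -0.90 ± 0.11. All lists were drawn up with the location of the genes and earlier results known.

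The 6 members that give most transcripts per length had fitted changes below 0 in both lines, but PDIA6, RPS7 and ODC1 were not called in Hs578T, nor YWHAQ and ODC1 in MDA-MB-231. Per kilobase of exon, YWHAQ, a 14-3-3 protein, led in Hs578T CD44 WT with 216 CPM per kb, followed by PDIA6, a protein disulfide isomerase, at 167, SF3B6 at 123, RPS7 at 122 and LAPTM4A at 119.6. In MDA-MB-231 CD44 WT the order was ODC1, the first enzyme of polyamine synthesis, at 201, YWHAQ at 195, SF3B6 at 149, RPS7 at 146 and PDIA6 at 123. YWHAQ had 615, 544 and 603 CPM and then 431, 429 and 421 CPM in Hs578T, and 488, 544 and 558 CPM and then 408, 418 and 428 CPM in MDA-MB-231, with no overlap in either. The changes of PDIA6 were -0.23 ± 0.08 and -0.43 ± 0.08 (SE), and those of ODC1 -0.27 ± 0.11 and -0.50 ± 0.11.

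The lines were compared directly by the difference of their changes, with the adjusted p over all genes. This difference is built from the ratios that chose the region, although the choice did not compare the lines. The p-values of members are therefore read as a description. The difference was called for 3 members, where 4.12% of all genes were called, and 29 members had an unadjusted p under 0.05, where 24.6% of all genes did. KLHL29, a Kelch-like protein, had 51.9, 52.7 and 57.1 CPM and then 51.0, 49.8 and 54.3 CPM in Hs578T, which overlap, and 82.4, 87.2 and 93.1 CPM and then 56.2, 58.2 and 51.7 CPM in MDA-MB-231, which do not. The difference was 0.60 ± 0.12 (SE, adjusted p = 0.0062). DNMT3A had 15.1, 18.1 and 12.9 CPM and then 12.03, 11.2 and 10.2 CPM in Hs578T, a change of -0.46 ± 0.14 (SE), and with the change in MDA-MB-231 given above the difference was -1.03 ± 0.19 (SE, adjusted p = 0.0033). The third, the long noncoding RNA ENSG00000233005, had 5 counts over Hs578T CD44 WT and 20 over CD44 KO, but 42 and 2 over those of MDA-MB-231. Its ratio of CD44 KO to CD44 WT in MDA-MB-231 was 0.0411 with an exact 95% interval of 0.00482 to 0.158 that covers counting error only. Leaving out single libraries moved the number of members called between 0 and 4. PXDN and SF3B6 were not called with all libraries. Without MDA-MB-231 CD44 WT 1 their differences were 0.64 and 0.40 (edgeR, adjusted p = 0.00058 and 0.0095).

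**Figure D5:**
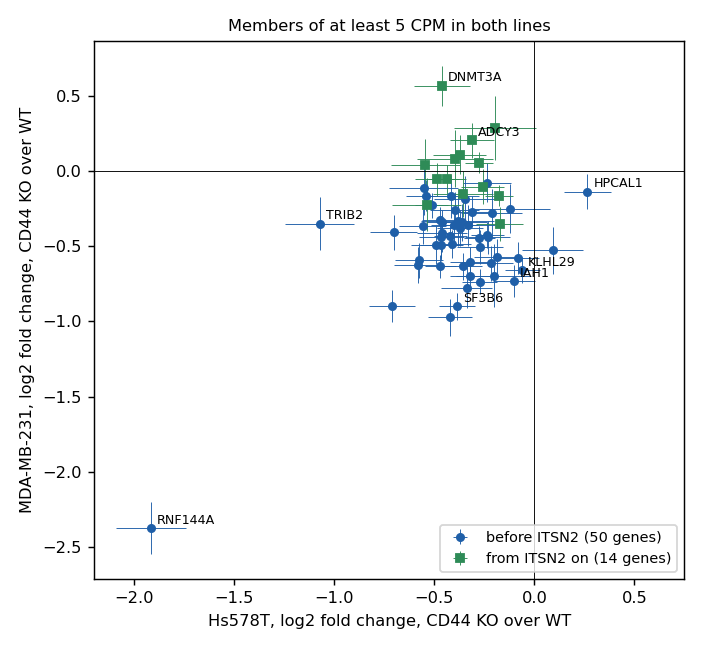
Fitted log2 fold changes, CD44 KO over CD44 WT, with SE bars in Hs578T (x axis) and MDA-MB-231 (y axis) for the 64 members of at least 5 CPM in both lines, 50 before ITSN2 (blue) and 14 from ITSN2 on (green). RNF144A lies apart at the lower left, and most other members form a cloud in which a larger decrease in one line does not go with a larger one in the other.

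Over these 64 members the changes of the lines were not ordered alike, with a Spearman correlation of -0.03, and over all 10075 genes of that level it was 0.02. The points share libraries within a line and chromosome position, so these values are a description. Near the end of the chromosome SH3YL1, an adaptor of membrane ruffles, had 4.85, 5.02 and 4.06 CPM and then 3.13, 4.87 and 5.80 CPM in Hs578T, and 14.998, 10.1 and 13.008 CPM and then 5.17, 5.35 and 7.41 CPM in MDA-MB-231. Only the MDA-MB-231 groups were apart, and the difference between the lines was 1.09 ± 0.32 (SE, adjusted p = 0.044), which misses the limit of 0.01. IAH1, an esterase, changed by -0.10 ± 0.11 and -0.73 ± 0.11 (SE), a difference of 0.63 ± 0.15 (adjusted p = 0.016).

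The CD44 WT levels are the base of the ratios that chose the region, but the choice did not compare them between the lines. They differed between the lines for 62 of 100 members, near the 61.5% of all genes. Hs578T had the higher level of 34 and MDA-MB-231 that of 28. RHOB, a small GTPase, had 156, 160.3 and 137 CPM in Hs578T CD44 WT and 13.03, 14.1 and 13.5 CPM in MDA-MB-231 CD44 WT, a difference of 3.48 ± 0.13 (log2, SE, adjusted p = 3.7e-12). Its changes in CD44 KO were nonetheless -0.46 ± 0.11 and -0.44 ± 0.14 (SE). SOX11 had 334 counts over Hs578T CD44 WT and 2 over MDA-MB-231 CD44 WT, a ratio of 0.00653 for MDA-MB-231 (exact 95% interval 0.000787 to 0.0238). In the other direction LRATD1 had 2 and 337 counts, and OSR1, a zinc finger transcription factor, 1 and 270, with ratios of 0.00545 (0.000657 to 0.0198) and 0.0034 (8.57e-05 to 0.0191) for Hs578T. So the region holds members that differed widely between the lines in CD44 WT and members with no called difference. Among the latter is TP53I3, whose difference was 0.04 ± 0.15 (SE, adjusted p = 0.81).

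The values of the genes just inside and just outside the edge are given without a test. Just inside lie HADHB, the beta subunit of the mitochondrial trifunctional protein, with changes of -0.18 ± 0.07 in Hs578T and -0.17 ± 0.07 in MDA-MB-231 (SE), and SELENOI, with -0.37 ± 0.13 and 0.11 ± 0.13. The last, FAM166C, had 2 and 1 counts over Hs578T CD44 WT and CD44 KO and a change of 0.90 ± 0.37 in MDA-MB-231. Just outside lie SLC35F6, with -0.38 ± 0.10 and -0.41 ± 0.10, CENPA, the centromeric histone H3 variant, with -0.44 ± 0.10 and -0.02 ± 0.10, and MAPRE3, a microtubule end binding protein, with -0.21 ± 0.12 and 0.14 ± 0.16. In Hs578T all 6 genes around the edge at 26.6 Mb had a fitted change below 0, but the counts of FAM166C carry no information on a change.

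The stretch of chromosome 11 between the end of its short arm and CD44, the target of the guides, was set beside the region. The 225 tested genes of that stretch, without CD44 itself, had a median of 0.08 in Hs578T, and in MDA-MB-231 it was -0.57. The values are given side by side and were not compared by a test.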

How the data were processed

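RNA of 12 libraries was sequenced as stranded paired-end reads. The authors aligned them to GRCh38 with HISAT2 2.1.0 and deposited whole-number counts of fragments per gene from featureCounts 1.6.2, made on the expected strand without normalization, with fragments over several genes left out. These counts were used as deposited. Of 404 members, 397 were given a current name. One MDA-MB-231 CD44 WT library could be tied to its group but to no replicate number.

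Genes above 1 CPM in at least 2 libraries and with 300 nt of exon or more were fitted with edgeR 4.0.16 in R 4.3.3 (TMM, quasi-likelihood test, 4 group means), with Benjamini-Hochberg adjustment over 15836 genes. DESeq2 1.42.0 was an alternative. The fit was tested on simulated data. Between 10257586 and 19725543 counts per library limit the precision of weak genes.

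Members, role lists and tests were chosen with earlier results of these data known. Genes were named where they had at least 5 CPM in the line and lay 1 (log2) below the median of their 10 nearest tested genes, had the 5 highest changes, were called in both lines or between lines, lay at the edge, or led per length, besides examples from the lists. Members in 17 pairs overlap, mostly on opposite strands.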

Additional observations from a re-analysis of the deposited data

Results flagged for a closer look

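The change of CD44 KO over CD44 WT differed between the lines for 3 members by the edgeR test of the difference itself, Hs578T minus MDA-MB-231. That difference is built from the ratios that chose the region, so its p-values are descriptive. For the long noncoding RNA ENSG00000233005 the difference was 6.25 (log2), a value that rests on 2 counts in MDA-MB-231 CD44 KO and depends on the prior count of the fit. For KLHL29 it was 0.60, and leaving out single libraries gave 0.54 to 0.64 with adjusted p from 0.0019 to 0.028. For DNMT3A it was -1.03, and leaving out single libraries gave -1.14 to -0.91 with adjusted p from 0.0012 to 0.012.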

How the results depend on the processing

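Median changes of the members were negative in both lines under every alternative run. With single libraries left out, the Hs578T median ranged from -0.42 to -0.36 and that of MDA-MB-231 from -0.42 to -0.38, the members called lower from 9 to 36 and from 13 to 29 in that order, those called higher from 0 to 1 in each line, and those whose change differed between lines from 0 to 4. Without the filter on low counts the medians were -0.35 and -0.31, with 3 and 1 members called higher and 9 different between lines. DESeq2 called 1 member higher in MDA-MB-231 and 7 different between lines. Each line filtered and fitted alone gave 37 members lower in Hs578T and 11 in MDA-MB-231. An adjusted p of at most 0.05 gave 41 lower and 2 higher in Hs578T, 41 lower and 1 higher in MDA-MB-231 and 11 different. These counts, and those of the other runs above, stand without a share of all genes called in the same run. How far the looser limit raised the calls among all genes was not tested. Means in place of medians were -0.42 and -0.57. In MDA-MB-231 the median was -0.49 for starts below 20 Mb and -0.33 below 30 Mb, and, with a split chosen after seeing the data, -0.48 before ITSN2 and -0.057 from ITSN2 on. The levels that differed between CD44 WT lines stayed within 1.5 times under all alternatives.

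Replicate numbers did not pair CD44 KO with CD44 WT libraries: correlations of their deviations were -0.06, 0.02 and -0.10 in Hs578T and 0.01 and 0.16 in MDA-MB-231. With the replicate block, over the 11 numbered libraries, the MDA-MB-231 median was -0.44, with 15 members lower there and 1 different between lines, against 18 and 2 in the same libraries without the block, an alternative chosen after seeing the data. Of 1277 values of 28 single genes under 23 settings, 1258 moved by less than the replicate spread and 19 by more. Depth limits the 29 members under 5 CPM.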
